A study of Homo sapiens with 6 samples.

Results

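The chromodomain readers examined were the CDYL pair (CDYL and CDYL2) and 7 chromobox genes (CBX1, CBX2, CBX3, CBX5, CBX6, CBX7 and CBX8), taken by symbol from the merged table of read counts. They were 9 of the 23304 genes that reached 10 reads summed over the 6 libraries, and all 9 reached that minimum. The list does not hold every human chromobox gene. The genes were selected on their membership of the family, with the CPM of the 6 libraries and the log2 fold changes between the groups already known, so the members' differences between groups are descriptions. Where a member passed the thresholds of the fit across all genes, this is given only as a count beside the share of all genes, and it is no independent test of the member.

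RNA-seq was performed on HEK293T cells, a line derived from human embryonic kidney that carries the SV40 large T antigen. In both groups the cells had been infected with a lentivirus and selected as stable lines, and they were grown in DMEM with fetal bovine serum without further treatment. The sh-control group (3 libraries) expressed a nonspecific hairpin and the sh-RREB1 group (3 libraries) expressed a short hairpin RNA against RREB1, a zinc finger transcription factor. The comparison asked which transcripts differ when RREB1 is targeted. Nothing in the labels says that the 3 libraries of a group came from separate cultures, so p-values measure the spread between these libraries, which may be technical, and 1 hairpin stands for each condition.

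A chromodomain is a small fold that holds a methylated lysine on the tail of a histone. The HP1 proteins, made by CBX1 (HP1 beta), CBX3 (HP1 gamma) and CBX5 (HP1 alpha), bind methylated H3K9 and are building blocks of heterochromatin, whereas CBX2, CBX6, CBX7 and CBX8 are subunits of the canonical Polycomb repressive complex PRC1 that bring it to methylated H3K27. CDYL and CDYL2 join a chromodomain to a domain that resembles enoyl-CoA hydratases, and CDYL works as a corepressor with REST and with H3K9 methyltransferases.

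The libraries held from 12257054 to 33044061 reads on genes. The third sh-RREB1 library was the shallowest, and 52.1% of its reads mapped to more than 1 place, against 3.66% to 7.63% in the others. The first sh-control library differed from the other sh-control libraries along the GC content of genes, as shown for the members further on. Libraries within sh-RREB1 differed from each other as well. Chi-square per degree of freedom between replicates 1 and 2, 1 and 3, and 2 and 3 was 55.4, 69.3 and 5.17 in sh-control. In sh-RREB1 it was 61.9, 16.0 and 20.5 for the same pairs. Whether the differences within sh-RREB1 follow GC content was not tested. Values are given as CPM, the read counts scaled to the size of each library with TMM factors. RREB1 itself (chr6:7107597-7251980) was at 27.2, 25.2 and 26.6 CPM (sh-control) and at 23.7, 24.6 and 23.2 CPM (sh-RREB1). The groups did not overlap, yet the difference was small, at −0.14 ± 0.13 (log2 fold change ± SE, edgeR adjusted p = 0.486, 95% interval −0.43 to 0.15). An exact two-sided permutation test of the 6 libraries gave p = 0.1, the smallest value that 3 against 3 allows. With the trend on GC content and length removed (described below for the members) it was −0.36 ± 0.12 (95% interval −0.63 to −0.10, edgeR adjusted p = 0.0541). All 22 alternatives put RREB1 lower in sh-RREB1, the direction that the labels give, and its adjusted p was above 0.01 in each. These alternatives reuse the same 6 libraries, so their common direction is no independent check of the labels. HEK293T markers summed to 427 to 494 CPM in sh-control and 717 to 835 CPM in sh-RREB1 over 7 genes, with PAX2 near 0 at 0.0935 to 0.476 CPM. Markers of leukocytes, endothelium, fibroblasts and hepatocytes (7 genes) summed to 1.09 to 1.46 CPM and 1.03 to 7.11 CPM, with CD3E at 0 reads in every library and COL1A2 at 0 in sh-control and up to 3.94 CPM in sh-RREB1. Their part in the members' values was not tested.

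In the sh-control cells the HP1 genes were the most abundant members and CDYL2 the least. To compare genes, CPM were divided by the exonic length of each gene in kilobases. On this scale the mean level was 119 ± 2.32 (SD, n = 3) for CBX1, 96.9 ± 3.93 for CBX3 and 42.7 ± 10.5 for CBX5. CDYL followed at 11.8 ± 0.746 CPM per kilobase, ahead of the Polycomb genes CBX6 at 7.64 ± 1.74 and CBX2 at 6.77 ± 2.70. CBX8 (2.4 ± 0.70), CBX7 (0.719 ± 0.283) and CDYL2 (0.198 ± 0.0140) closed the order. Each gene stood apart from its neighbour in this order in every library, except that CBX6 and CBX2 overlapped. The first 2 places depended on the length used. With the length of the canonical transcript in place of all exonic bases, a choice made after the data were seen, CBX3 (228) stood above CBX1 (166) and the rest of the order was the same.

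**Figure D1:**
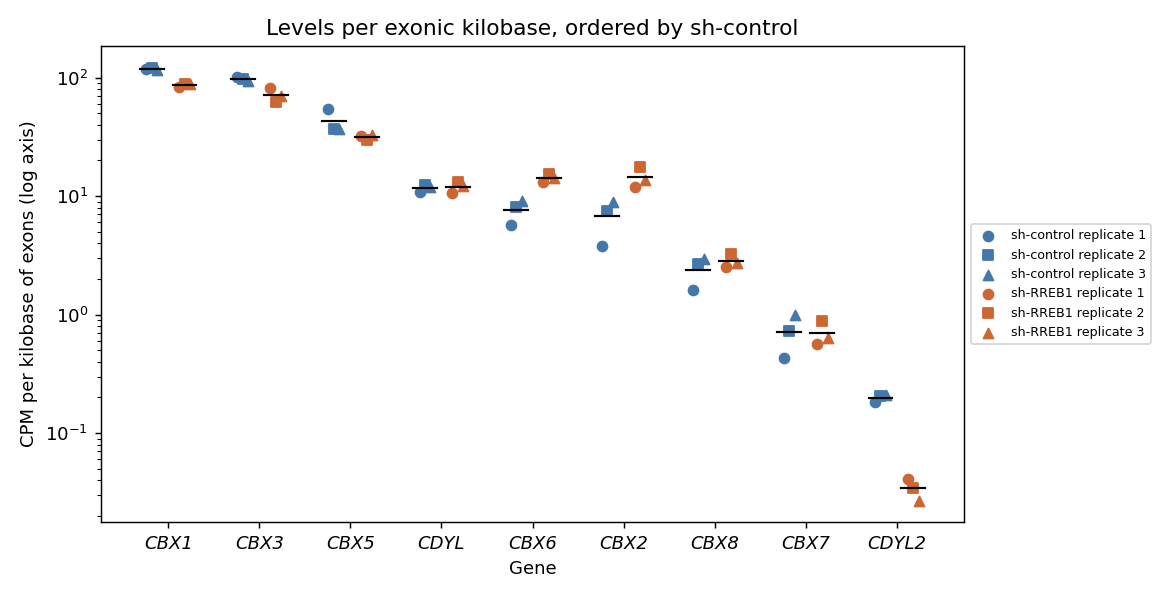
Level of each member in CPM per kilobase of exons (log axis), with 1 point per library, blue for sh-control and orange for sh-RREB1, and a line at each group mean. The HP1 genes CBX1, CBX3 and CBX5 lie above all other members in both groups, and CDYL2 lies below all others.

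In the sh-RREB1 cells the order changed in its middle. CBX1 (86.5 ± 3.14 CPM per kilobase), CBX3 (71.3 ± 9.65) and CBX5 (31.4 ± 1.37) again led, but CBX2 (14.5 ± 2.99) and CBX6 (14.3 ± 1.15) now stood above CDYL (12 ± 1.3). CBX2 and CBX6 overlapped each other. CBX6 and CDYL did not, although the lowest CBX6 library (13.2) and the highest CDYL library (13.17) almost met. CBX8 at 2.83 ± 0.360, CBX7 at 0.693 ± 0.162 and CDYL2 at 0.0342 ± 0.00708 kept the last 3 places.

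Between the groups, CDYL2 was 5.55-fold lower in the sh-RREB1 cells, the 3 HP1 genes were each 1.36- to 1.38-fold lower, CBX2 and CBX6 were higher, and CDYL, CBX7 and CBX8 overlapped between the groups. At an adjusted p below 0.01 with an absolute log2 fold change above 1, 1 of the 9 members (CDYL2) was called lower and 0 were called higher. Among all 23304 genes tested 3.41% were called at these thresholds, 0.699% lower and 2.71% higher. Since this contrast was known when the family was chosen, nothing is read from the members' count. Without a minimum fold 1 member was lower (CDYL2, background 2.39%) and 1 was higher (CBX6, background 3.12%). On leaving out 1 library, the adjusted p of CBX6 stayed below 0.01 only where the first sh-control library was left out. It was also above 0.01 with the counts of both strands. The libraries of the groups did not overlap for 6 of the 9 members, against 41.1% of all genes. The median log2 fold change was −0.06 over the members and 0.01 over all genes. In bulk RNA, less of a transcript per cell and fewer cells that make it cannot be told apart.

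**Figure D2:**
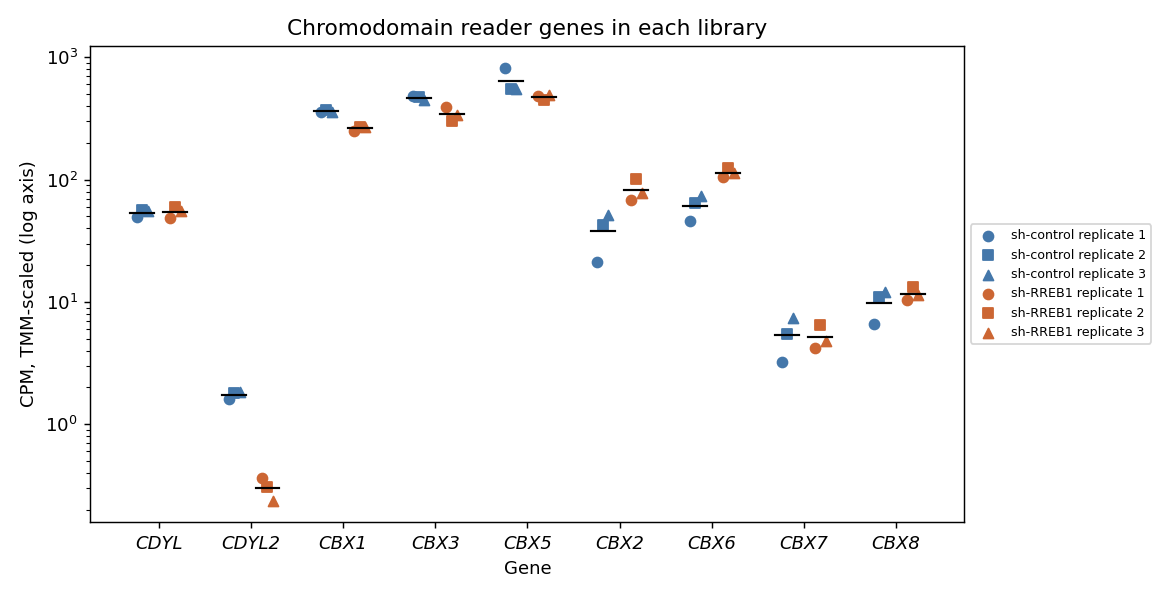
CPM of each member in each library (log axis), with circles, squares and triangles for replicates 1, 2 and 3, blue for sh-control, orange for sh-RREB1, and a line at each group mean. The 3 sh-RREB1 libraries lie below the 3 sh-control libraries for CDYL2, CBX1, CBX3 and CBX5, and above them for CBX2 and CBX6. The groups overlap for CDYL, CBX7 and CBX8.

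CDYL2 (ENSG00000166446, chr16:80597907-80804598, minus strand) encodes a close relative of CDYL. It received 37, 49 and 59 reads in the sh-control libraries and 9, 8 and 3 reads in the sh-RREB1 libraries. These counts correspond to 1.61, 1.80 and 1.84 CPM (mean 1.75 ± 0.123, SD, n = 3) and to 0.363, 0.306 and 0.238 CPM (0.302 ± 0.0625). The highest sh-RREB1 library was thus well below the lowest sh-control library. On the log2 scale the fold change was −2.47 ± 0.28 (SE, 95% interval −3.12 to −1.83), which is 5.55-fold lower. The value stayed between −2.62 and −2.31 over all alternatives tried, but the call at these thresholds was lost when the second sh-control library was left out (−2.48) and when any 1 sh-RREB1 library was left out (−2.62 to −2.38). With the trend on GC content and length removed (below) the call was kept without any 1 of the 6 libraries. At these read numbers counting error is large. No read was counted on the strand opposite to CDYL2.

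CDYL (ENSG00000153046, chr6:4706159-4955551, plus strand), the corepressor and reader of repressive methyl marks, was at 49.9, 56.3 and 55.0 CPM (sh-control) and at 48.3, 60.1 and 55.8 CPM (sh-RREB1). The groups overlapped and their means were 53.7 ± 3.40 and 54.7 ± 5.98 CPM (SD, n = 3). The log2 fold change was 0.03 ± 0.13 (SE), and its interval of −0.26 to 0.31 limits any difference in either direction. It turned to −0.06 without the first sh-control library and to −0.05 without the second sh-RREB1 library. CDYL therefore made up nearly all of the pair's reads in both groups. Per kilobase, CDYL was 59.9, 60.4 and 57.8 times the level of CDYL2 in sh-control and 257, 380 and 453 times in sh-RREB1. As a sum over the pair, the level was 12 ± 0.76 CPM per kilobase in sh-control and 12 ± 1.3 in sh-RREB1, of which CDYL2 made up 1.63% to 1.70% in sh-control and 0.220% to 0.387% in sh-RREB1.

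The HP1 genes CBX1, CBX3 and CBX5 all had lower values in the sh-RREB1 libraries. CBX1 (ENSG00000108468, chr17:48070052-48101478, minus strand), which makes HP1 beta, was at 360, 370 and 356 CPM (sh-control) and at 252, 269 and 269 CPM (sh-RREB1). Both groups were tight and far from overlapping, with means of 362 ± 7.06 and 263 ± 9.57 CPM (SD, n = 3). Relative to sh-control, the log2 fold change was −0.46 ± 0.09 (SE, 95% interval −0.67 to −0.25).

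CBX3 (ENSG00000122565, chr7:26201162-26213607, plus strand) makes HP1 gamma, the HP1 protein that is also found along transcribed genes. It was at 487, 470 and 449 CPM (sh-control) and at 395, 302 and 339 CPM (sh-RREB1). The groups did not overlap, but the sh-RREB1 libraries spread more widely, with means of 469 ± 19.0 and 345 ± 46.7 CPM. The log2 fold change was −0.44 ± 0.12 (95% interval −0.71 to −0.17). The ratio of CBX3 to CBX1 per kilobase was 0.851, 0.80 and 0.793 in sh-control and 0.984, 0.706 and 0.793 in sh-RREB1, so the balance of these genes overlapped between the groups.

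CBX5 (ENSG00000094916, chr12:54230942-54280133, minus strand), the gene of HP1 alpha, was at 824, 551 and 551 CPM (sh-control) and at 479, 449 and 488 CPM (sh-RREB1). The first sh-control library was far above the other sh-control libraries, which were near the sh-RREB1 values. With means of 642 ± 158 and 472 ± 20.6 CPM, the log2 fold change was −0.44 ± 0.16 (95% interval −0.81 to −0.08). Without the first sh-control library it shrank to −0.25, while CBX1 (−0.50) and CBX3 (−0.44) stayed in place. The summed HP1 level was 259 ± 13.9 CPM per kilobase in sh-control and 189 ± 7.96 in sh-RREB1.

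The promoter sequences of the HP1 genes are shown because their transcripts moved in the same direction, with that of CBX6, which moved the other way, beside them. Each line gives 150 bases before the RefSeq start and 20 bases from it (GRCh38.p14, 5′ to 3′ on the strand of the gene). Capitals mark TTTGGCG, a run of letters of the kind that E2F factors bind, searched on both strands and chosen with these sequences in view.
CBX1, chr17:48101167-48101336, minus strand: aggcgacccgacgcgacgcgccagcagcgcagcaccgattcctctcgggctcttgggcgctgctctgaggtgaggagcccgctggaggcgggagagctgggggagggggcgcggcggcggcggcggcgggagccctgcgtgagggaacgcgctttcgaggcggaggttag
CBX3, chr7:26201293-26201462, plus strand: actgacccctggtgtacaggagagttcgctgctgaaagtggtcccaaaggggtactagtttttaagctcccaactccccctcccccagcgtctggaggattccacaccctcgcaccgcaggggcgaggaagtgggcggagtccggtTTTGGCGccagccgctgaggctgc
CBX5, chr12:54280103-54280272, minus strand: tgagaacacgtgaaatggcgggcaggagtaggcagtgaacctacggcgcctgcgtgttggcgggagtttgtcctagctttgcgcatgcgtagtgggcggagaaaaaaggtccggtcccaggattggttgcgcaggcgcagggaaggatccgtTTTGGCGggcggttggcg
CBX6, chr22:38872197-38872366, minus strand: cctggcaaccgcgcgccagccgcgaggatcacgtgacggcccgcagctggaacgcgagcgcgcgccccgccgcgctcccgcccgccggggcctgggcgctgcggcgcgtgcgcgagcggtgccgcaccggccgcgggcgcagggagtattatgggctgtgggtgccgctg
TTTGGCG was present in the windows of CBX3 and of the first CBX5 start, at the transcription start itself, and in 401 of 35116 RefSeq windows of this length, 1.14%. It was not in the windows of CBX1 or CBX6. A match is a description of letters and not a measured site. The GC content of the 170 bases was 74.7% for CBX1, 62.4% for CBX3, 61.2% for CBX5 and 80.0% for CBX6, beside a median of 60.0% over all windows. RefSeq entries were matched for 6 of the 9 members, and CDYL2, CBX2 and CBX8 were not among them.

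CBX3 and CBX5 each start beside a gene of an hnRNP protein that is read from the other strand. The annotated CBX3 overlaps HNRNPA2B1 by 368 bases, and the annotated start of CBX5 lies 59 bases from that of HNRNPA1. HNRNPA2B1 was at 1890, 1409 and 1361 CPM (sh-control) and at 1218, 1159 and 1241 CPM (sh-RREB1), with a log2 fold change of −0.37 ± 0.14 that did not pass the test (edgeR adjusted p = 0.0953). HNRNPA1 was at 1654, 1742 and 1612 CPM and at 1569, 1871 and 1718 CPM, with overlapping groups (0.04 ± 0.10, edgeR adjusted p = 0.816). Both code for proteins that bind nuclear RNA and take part in splicing. Counting used the strand of the gene, and reads on the opposite strand of a member were at most 49 in a library (CBX1) and at most 1.69% of its reads on both strands (CBX8). Counted reads of the processed copies listed for the HP1 genes were few. Copies on some chromosomes were left out of this list. Reads that map to several places are not counted on any gene, so low counts do not show how many reads copies and members share. Of 16 processed copies of members listed, those of CDYL included, 5 reached 10 reads summed over the libraries, namely CBX1P1 (43), CBX3P1 (12), CBX3P4 (37), CBX3P9 (141) and CBX5P1 (250).

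The Polycomb genes CBX2 and CBX6 had higher values in the sh-RREB1 libraries. CBX2 (ENSG00000173894, chr17:79778148-79787983, plus strand), whose protein compacts chromatin within PRC1, was at 21.4, 42.8 and 51.0 CPM (sh-control) and at 67.6, 101 and 78.2 CPM (sh-RREB1). The groups did not overlap, and the first sh-control library was far below the other sh-control libraries. The means were 38.4 ± 15.3 and 82.2 ± 16.9 CPM (SD, n = 3). These give a log2 fold change of 1.10 ± 0.29 (SE, 95% interval 0.44 to 1.76), or 2.14-fold, and 0.77 without the first sh-control library.

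CBX6 (ENSG00000183741, chr22:38861422-38872249, minus strand), a further reader subunit of canonical PRC1, was at 45.8, 64.4 and 73.1 CPM (sh-control) and at 106, 124 and 113 CPM (sh-RREB1). The groups were apart, with means of 61.1 ± 13.9 and 114 ± 9.19 CPM. The corresponding log2 fold change was 0.90 ± 0.17 (95% interval 0.52 to 1.29), or 1.87-fold, and 0.70 without the first sh-control library.

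The values of CBX7 and CBX8 overlapped between the groups. CBX7 (ENSG00000100307, chr22:39120167-39152680, minus strand), a subunit that binds H3K27 methylation and RNA, received from 60 to 239 reads. It was at 3.22, 5.45 and 7.45 CPM (sh-control) and at 4.23, 6.54 and 4.76 CPM (sh-RREB1). The first sh-control library was the lowest of all 6, and the log2 fold change of −0.06 ± 0.31 had an interval from −0.76 to 0.64, which leaves room for a difference of more than 1.5-fold either way. CBX8 (ENSG00000141570, chr17:79792132-79801683, minus strand), which couples PRC1 to other chromatin factors, was at 6.61, 11 and 12.1 CPM (sh-control) and at 10.4, 13.3 and 11.3 CPM (sh-RREB1). Here too the first sh-control library was the lowest, with a log2 fold change of 0.24 ± 0.24 (95% interval −0.30 to 0.77) that was −0.02 without the first sh-control library.

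The members that neighbour each other on a chromosome had unlike values. CBX2 and CBX8 lie tail to tail on chromosome 17 with 4148 bases between their ends, and CBX6 and CBX7 lie on chromosome 22 with 248 kilobases between them. In each pair 1 gene had separated groups and the other overlapped, a contrast that was not tested. The shares of the Polycomb members within their summed level per kilobase were uneven as well. CBX2 made up 32.7%, 39.7% and 40.8% of the sum in sh-control and 42.3%, 47.6% and 44% in sh-RREB1. CBX8 made up 13.9%, 14% and 13.3% and then 8.93%, 8.63% and 8.76%, and CBX7 3.74%, 3.84% and 4.52% and then 2.01%, 2.34% and 2.03%. All 3 shares were separate between the groups, CBX2 upward and the others downward. The share of CBX6 was 49.7%, 42.4% and 41.4% in sh-control and 46.8%, 41.5% and 45.3% in sh-RREB1 and overlapped. The 4 genes have similar exonic GC content, from 58.0% to 60.0%, but the part of the GC trend in their shares was not tested. Within sh-control alone the share of CBX2 ranged from 32.7% to 40.8%.

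As a sum, the Polycomb members were at 17.5 ± 5.41 CPM per kilobase in sh-control and at 32.3 ± 4.65 in sh-RREB1. The ratio of the summed HP1 level to the summed Polycomb level was 23.7, 13.4 and 11.2 in sh-control and 6.96, 4.83 and 6.08 in sh-RREB1. The groups were separate in this ratio, with the first sh-control library far from its own group. The HP1 genes and the Polycomb members also differ in GC content, so the ratio carries the trend described next.

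The members' values followed the GC content of their exons, both within the sh-control group and between the groups. HP1 and CDYL genes have an exonic GC content of 41.2% (CBX5) to 49.7% (CBX1), and the Polycomb members 58.0% to 60.0%. Relative to the average of its group's other libraries, the first sh-control library stood at 0.58 on the log2 scale for CBX5, 0.08 for CBX3, −0.01 for CBX1, −0.16 for CDYL and −0.18 for CDYL2. For the Polycomb members the difference was −0.58 (CBX6), −0.80 (CBX8), −0.98 (CBX7) and −1.13 (CBX2). Within 1 condition, then, CBX2 varied as much as it did between the conditions. Over the 9 members, the rank correlation with exonic GC content was −0.92 for this library's difference and 0.70 for the log2 fold change between groups. These are descriptions over 9 genes measured in the same 6 libraries.

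**Figure D3:**
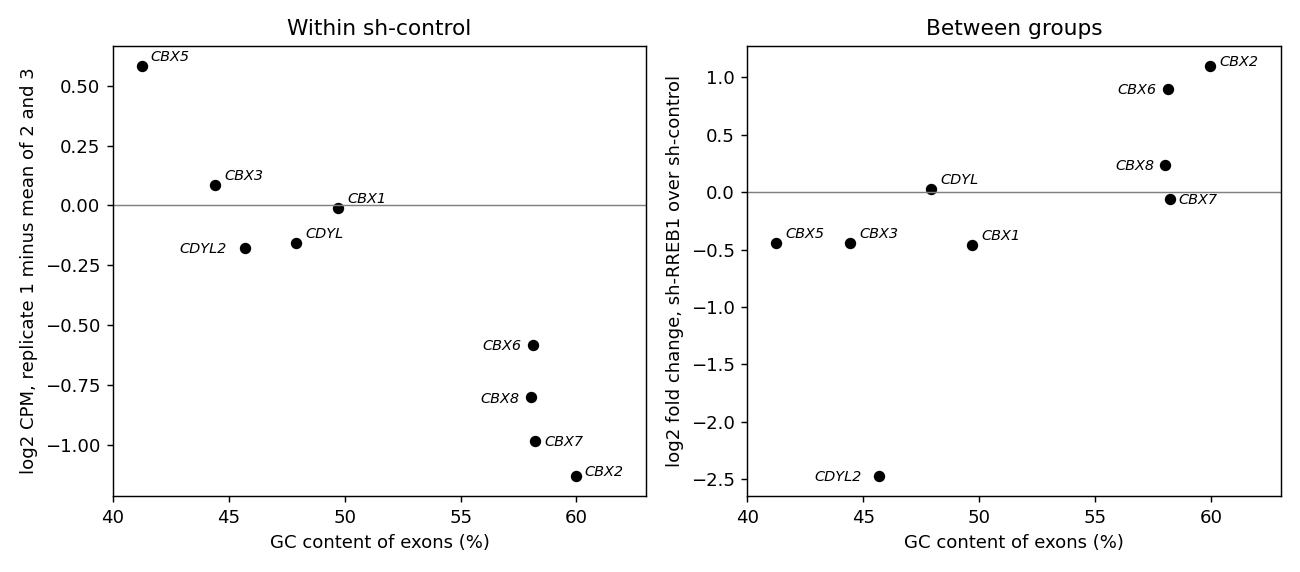
Each point is 1 member, plotted by the GC content of its exons (%). The left panel gives log2 CPM of the first sh-control library minus the average of its group's other libraries, which runs from 0.58 for CBX5 to −1.13 for CBX2, and the right panel gives the log2 fold change between groups, which runs from −2.47 for CDYL2 to 1.10 for CBX2.

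After removal of the trend on GC content and length, CDYL2 and CBX1 kept their values, CBX2 and CBX6 lost most of theirs, and CBX7 and CBX8 became lower in sh-RREB1. Log2 fold changes were then −2.39 ± 0.29 for CDYL2, −0.47 ± 0.08 for CBX1, −0.29 ± 0.10 for CBX3, −0.24 ± 0.11 for CBX5 and 0.07 for CDYL. CBX2 fell to 0.25 ± 0.10 and CBX6 to 0.20 ± 0.09, with an interval for CBX6 from 0.00 to 0.39. CBX7 was at −0.75 ± 0.15 (95% interval −1.09 to −0.42) and CBX8 at −0.41 ± 0.11 (−0.64 to −0.18). CBX2, CBX6, CBX7 and CBX8 are thus the members whose values changed most with this step. With the trend removed 1 member (CDYL2) was called, beside 3.02% of all genes (1.18% lower). Without a minimum fold 3 were lower (CDYL2, CBX1 and CBX7, background 5.99%) and 0 were higher (background 5.32%), and the members' median was −0.29 beside −0.03 over all genes. On leaving out 1 library the adjusted p stayed below 0.01 for CDYL2 in each fit. It rose above 0.01 for CBX1 without the second sh-control library or the third sh-RREB1 library. For CBX7 it was below 0.01 only without the first sh-control library. The removal would also take away a true difference that follows GC content.

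**Figure D4:**
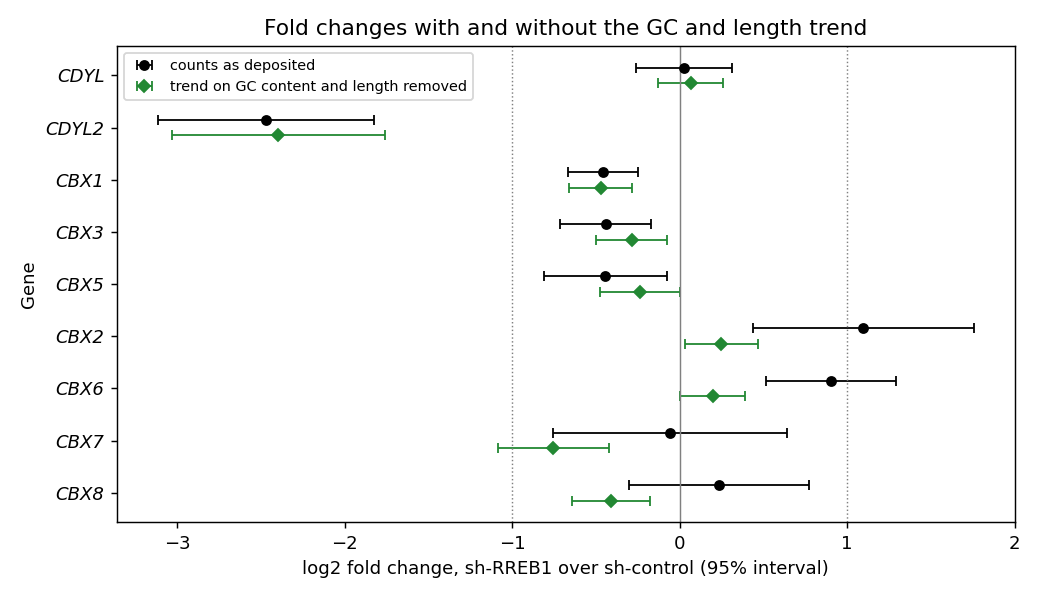
Log2 fold change of sh-RREB1 over sh-control for each member with its 95% interval, from the counts as deposited (black circles) and with the trend on GC content and length removed (green diamonds). Dotted lines mark a log2 fold change of −1 and 1. CDYL2 and CBX1 stay in place, CBX2 and CBX6 move toward 0, and CBX7 and CBX8 move below 0.

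Around the readers, 79 genes were examined. They comprise genes of complexes that write, read or erase the same marks, partners of CDYL and of HP1, and other chromodomain genes. Not all of the 79 act on these marks. Of these 1 was called, WIZ, higher in sh-RREB1, beside 3.41% of all genes. None was called lower. Without a minimum fold, 2 were higher (background 3.12%) and 3 lower (background 2.39%), and the median log2 fold change of the 79 was −0.07. At an unadjusted p below 0.05 there were 39 (edgeR), which is 49.4% of the 79 beside 34.4% of all genes, and DESeq2 called 4. With the GC and length trend removed the counts without a minimum fold were 1 higher (background 5.32%) and 13 lower (background 5.99%). EPOP alone was called in that fit, beside 3.02% of all genes. These lists were also drawn up with results of this contrast known, so nothing is read from their counts.

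WIZ, a zinc finger protein that holds the H3K9 methyltransferases EHMT1 and EHMT2 on chromatin, was at 2.48, 2.54 and 2.96 CPM (sh-control) and at 12.5, 11 and 7.93 CPM (sh-RREB1). The groups were far apart (log2 fold change 1.98 ± 0.22, edgeR adjusted p = 0.00206), and the value was 0.85 with the GC trend removed (adjusted p = 0.026). The call was lost without the second sh-control library, the first sh-RREB1 library or the third sh-RREB1 library. Of the 9 H3K9 methyltransferases and cofactors, no other passed the test, and the median of the list was −0.20. SETDB1 passed with the GC trend removed (−0.45, adjusted p = 0.00621).

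Of 9 canonical PRC1 subunits, the partners of the Polycomb members, none was called. The scaffold PHC2 (1.05, edgeR adjusted p = 0.0192) and the RING partner PCGF2 (0.83, adjusted p = 0.0198) had the largest values, and with the GC trend removed these were 0.13 and 0.19. RING1, the ubiquitin ligase subunit, was at −0.59 with the trend removed (adjusted p = 0.0074) and at 0.38 without (adjusted p = 0.214). The median of the list was 0.31. In the variant PRC1 list of 11 genes, the corepressor BCOR rose without reaching the fold minimum. It was at 146, 131 and 141 CPM (sh-control) and at 214, 241 and 193 CPM (sh-RREB1) (0.63 ± 0.11, edgeR adjusted p = 0.00883), and at 0.25 with the GC trend removed. BCORL1 was at 0.68 (adjusted p = 0.0589).

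Of 12 PRC2 genes, whose complex methylates H3K27, 9 had a negative log2 fold change (75% beside 49.1% of all genes), and the histone-binding RBBP7 passed the test without the fold minimum. RBBP7 was at 762, 737 and 697 CPM (sh-control) and at 470, 486 and 485 CPM (sh-RREB1) (−0.61 ± 0.09, edgeR adjusted p = 0.0052, and −0.48 with the GC trend removed, adjusted p = 0.00148). The core subunit SUZ12 was at −0.73 (adjusted p = 0.0143) and PHF19 at 0.71 (adjusted p = 0.0426). With the GC trend removed, 5 of the 12 were lower at an adjusted p below 0.01 (background 5.99%), namely SUZ12 (−0.49), EZH1 (−0.63), RBBP7, PHF1 (−0.69) and EPOP. EPOP, a PRC2 accessory gene, was at −1.75 (adjusted p = 0.000129) with the trend removed but at −0.40 (adjusted p = 0.286) without, at 8.96, 12.5 and 14.1 CPM (sh-control) and at 7.17, 11.7 and 8.09 CPM (sh-RREB1). The H3K27 demethylases KDM6A (−0.60, adjusted p = 0.0105) and KDM6B (0.58, adjusted p = 0.176) did not pass, and KDM6A did with the trend removed (−0.46, adjusted p = 0.00433).

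Among 8 corepressor partners of CDYL none passed. MIER2 was at 1.15 (edgeR adjusted p = 0.0241) and the deacetylase HDAC1 at −0.57 (adjusted p = 0.0239), and with the GC trend removed MIER2 was at 0.15 while HDAC1 (−0.64, adjusted p = 0.000388) and the chromatin assembly subunit CHAF1A (−0.49, adjusted p = 0.00146) were lower. Among 9 HP1 partners none passed. TRIM28, the corepressor that recruits HP1 for KRAB zinc finger proteins, was at 58.4, 111 and 137 CPM (sh-control) and at 197, 280 and 210 CPM (sh-RREB1), with its first sh-control library far below the others (1.17, adjusted p = 0.0219, and 0.05 with the GC trend removed). AHDC1 was at 1.04 (adjusted p = 0.0266) and at −0.18 with the trend removed. LRIF1 passed with the trend removed only, at 0.39 (adjusted p = 0.00911).

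TASOR, the scaffold of the HUSH silencing complex that works on H3K9 methylated chromatin, was at 469, 387 and 383 CPM (sh-control) and at 276, 199 and 242 CPM (sh-RREB1). The groups did not overlap, and TASOR fell by 0.79 ± 0.14 on the log2 scale (edgeR adjusted p = 0.00899) and, with the GC trend removed, by 0.57 (adjusted p = 0.000425). PPHLN1 of the same complex was at −0.40 (adjusted p = 0.0262). Of 15 other chromodomain genes, ARID4B, a SIN3 complex subunit, was lower (−0.68 ± 0.12, adjusted p = 0.00886), and ARID4A was at −0.60 (adjusted p = 0.0232). With the GC trend removed ARID4B (−0.48, adjusted p = 0.00186) and the remodeller CHD3 (−0.76, adjusted p = 0.000123) were lower. BCOR, RBBP7, TASOR and ARID4B passed without the first sh-control library, but none of them did without any 1 of the other 5 libraries, where their adjusted p rose to at most 0.0541, 0.0378, 0.0473 and 0.0485. With the GC trend removed, TASOR, EZH1, EPOP, HDAC1 and CHD3 passed without any 1 of the 6 libraries, while the other listed genes named as passing in that fit lost it in at least 1 such fit. SETDB1, RING1, PHF1 and KDM6A lost it in most of these fits, and LRIF1 in all of them (edgeR adjusted p from 0.0102 to 0.0416).

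**Figure D5:**
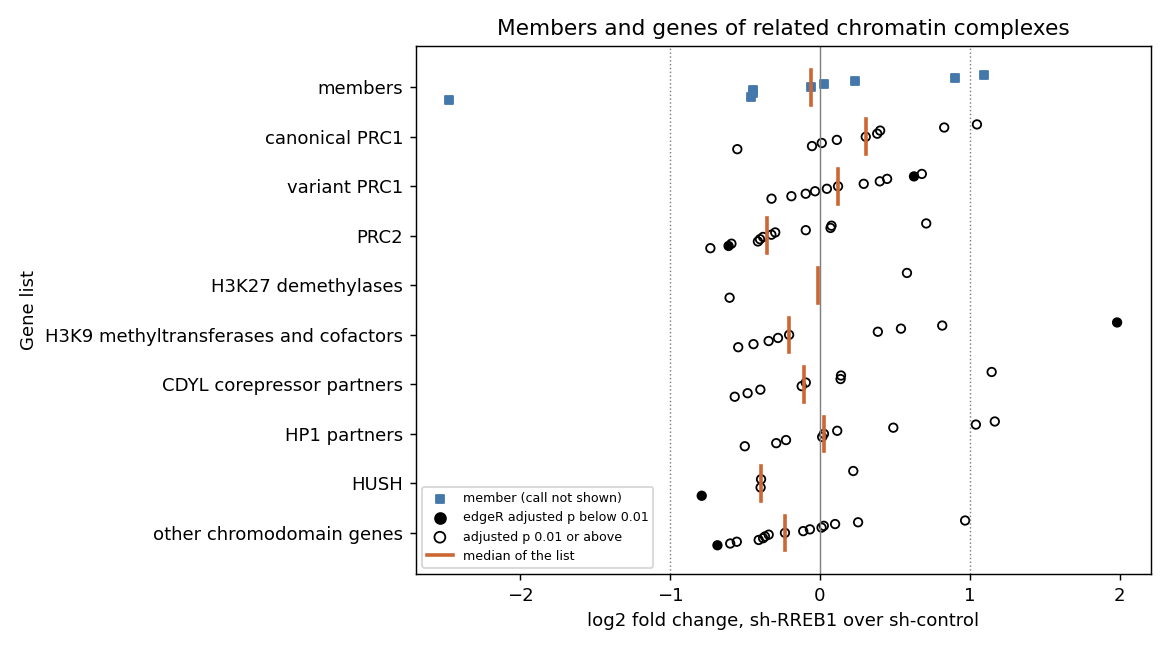
Log2 fold change of sh-RREB1 over sh-control for the members (blue squares, calls not shown) and for the genes of each list (circles, filled where the edgeR adjusted p was below 0.01), with an orange line at the median of each list. The filled circles are WIZ and BCOR on the right and RBBP7, TASOR and ARID4B on the left.

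CDYL lies on the short arm of chromosome 6, where 2.15 megabases separate its end from the start of RREB1. Of 39 genes annotated between them 10 were tested, and 6 had a mean of at least 1 CPM. NRN1, which makes the neuronal surface protein neuritin, was at 33.4, 35.8 and 33.9 CPM (sh-control) and at 20.03, 18.5 and 17.8 CPM (sh-RREB1). It was lower without reaching the fold minimum (−0.87 ± 0.13, edgeR adjusted p = 0.00497, and −0.98 with the GC trend removed, adjusted p = 0.000321). Without the third sh-RREB1 library the first of these was 0.0356, and only the fit without the first sh-control library kept it below 0.01. With the GC trend removed NRN1 stayed below 0.01 without any 1 of the 6 libraries. The others were RPP40 (0.28), LYRM4-AS1 (0.33), LYRM4 (0.08), FARS2 (0.12) and ENSG00000261211 (0.37), whose groups overlapped. Of these 6 genes, then, 1 passed the test without the fold minimum. Among all genes 2.39% were lower and 3.12% higher on that criterion, and nothing is read from the count of 1.

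The genes whose log2 CPM ran most like that of CDYL over the 6 libraries, among 14482 with a mean of at least 1 CPM, were SFXN4 (Pearson r = 0.99), ENSG00000262879 (0.99), GPATCH4 (0.99), SNX11 (0.99) and NDUFA8 (0.99). Like CDYL, each was lowest in the first library of either group and highest in the second sh-RREB1 library. SFXN4 was at 41.7, 50.0 and 47.2 CPM (sh-control) and at 39.7, 56.7 and 48.9 CPM (sh-RREB1). The genes most like CDYL2, a search added after its values were seen, were ZNF114, MMUT, EHBP1L1, NRN1 and IQCG. ZNF114 was at 6.31, 6.66 and 6.64 CPM (sh-control) and at 2.34, 2.10 and 1.98 CPM (sh-RREB1), the same descent as CDYL2 within the sh-RREB1 libraries. These likenesses describe 6 libraries of 2 groups, among them the third sh-RREB1 library with its high share of multiple mapping.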

How the data were processed

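Total RNA of the 6 HEK293T libraries had been extracted with TRIzol and prepared with a strand-specific TruSeq kit. The authors aligned the reads with STAR (2.4.2a) to hg38 with Gencode 25 and deposited, without normalization, the raw counts that STAR gives for both strands and for each strand, besides a merged table. Counts on the gene's own strand were analysed, without the lines for unassigned reads. Of 58037 identifiers, 45 pseudoautosomal duplicates were dropped, and of identifiers with a common symbol the one with most reads was kept, which left 55767. The merged file had 2664 rows with no counts. Genes with at least 10 reads in total were tested with the quasi-likelihood test of edgeR 4.0.16 (TMM, condition only) under R 4.3.3, and p-values were adjusted by Benjamini-Hochberg. Called genes had an adjusted p below 0.01 and a log2 fold change beyond 1 in either direction, and SE and 95% intervals come from the same fit. Depth ran from 12257054 to 33044061 reads on genes per library, and intervals cover the spread between libraries, not between cultures. Gencode 44 on hg38 gave coordinates, exonic lengths and GC contents, and promoters from RefSeq tables (GRCh38.p14). The trend on GC content and exonic length was removed as an offset (natural splines, 5 degrees of freedom). On simulated counts of 22853 genes with 200 changed, edgeR recovered 100% with 1 false call and DESeq2 1.42.0 recovered 98.5% with 0. The simulated counts had the same dispersion for all genes, the same size of change in each changed gene and no GC trend. They are thus a check of the code and give no error rate for these libraries.

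Members and lists were chosen with earlier results of these data known. Named genes were all members, RREB1, called genes of each list or otherwise its 2 largest changes at a mean of at least 1 CPM, genes between CDYL and RREB1, the head-to-head hnRNP genes, processed copies with 10 reads and the 5 genes most like CDYL. RBBP7, EPOP, RING1, SETDB1, EZH1, PHF1, CHAF1A, LRIF1 and CHD3, and the genes most like CDYL2, were added after their values were seen.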

Additional observations from a re-analysis of the deposited data

How the results depend on the processing

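Against 794 genes called across all genes, DESeq2 called 1647, a minimum of 1 read in total 1801, an adjusted p below 0.05 2032 and no minimum fold 1282. Leaving out 1 library gave 8 to 1117 calls (8 without sh-RREB1 replicate 3), and 453 to 709 with the GC and length trend removed (453 without sh-RREB1 replicate 3, 495 without its replicate 1, 502 without sh-control replicate 2). Of the members, 1 (CDYL2) was called. By DESeq2, with the minimum of 1 read or at an adjusted p below 0.05 there were 2, with CBX2 added as higher. Without a minimum fold there were also 2, with CBX6 added as higher. Leaving out 1 library gave 0 to 1. Of the listed genes 1 was called, with 4 by DESeq2 and with the minimum of 1 read, 5 at an adjusted p below 0.05 and 5 without a minimum fold. Leaving out 1 library gave 0 to 1, and 1 to 2 with the GC trend removed as well. Direction turned for CDYL on leaving out 1 library (−0.058 to 0.11), where the fits without sh-control replicate 1 or sh-RREB1 replicate 2 made it negative. It turned for CBX7 with library size as the only scaling (0.023) and on leaving out 1 library (−0.35 to 0.22). It turned for CBX8 on leaving out 1 library (−0.015 to 0.37), with the GC trend removed (−0.41), and on leaving out a library in that fit (−0.43 to −0.39, with −0.40 in 3 of the fits). With canonical transcript lengths 2 places of the level order moved. The cause was not tested. CDYL2, CBX1, CBX2, CBX3, CBX5 and CBX6 kept their direction in all 22 alternatives. Canonical lengths and the GC removal without each library were chosen after seeing the data.

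The replicate numbers were not used as pairs in the main fit. Deviations of same-numbered libraries correlated at 0.50, 0.43 and −0.28, and those of sh-control replicate 3 and sh-RREB1 replicate 2 at 0.56. These values do not settle whether the numbers pair the libraries. With the replicate block 1684 genes, 2 members (CDYL2 and CBX2) and 3 listed genes were called, CBX7 was at 0.0090, and CBX8 was at −0.41 with the GC trend removed as well. The third sh-RREB1 library had 12257054 reads on genes, the fewest of the 6, and it held 3 reads of CDYL2 and 60 of CBX7.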
